A study of Mus musculus with 8 samples.

Results

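The collagens and fibroblast matrix proteins are a list of 46 genes for the fibres, proteoglycans, elastic fibre proteins, crosslinking enzymes and glycoproteins that fibroblasts lay down around themselves. Each member was read from 1 probe set, the brightest on average among those that carry its symbol alone, which gave 44 of the 46 members among 17097 genes measured. Fbn1 and Efemp2 had no such probe set and were not analysed here. The members were 6 fibrillar collagens, 10 other collagens, 7 proteoglycans, 9 elastic fibre genes, 4 genes for crosslinking and collagen processing, and 8 matricellular and other glycoproteins.

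RNA was hybridized to 8 Affymetrix arrays, 1 per sample. Mouse embryonic fibroblasts (MEF, n = 2) came from C57/B6 embryos at day 13.5, and for one of the samples the labels state that head and internal organs had been removed. Primary hepatocytes (PH, n = 3) came from male C57/B6 mice of 8 to 10 weeks by perfusion with collagenase, an enzyme that digests collagen, and were cultured in a hepatocyte medium before RNA was taken. The array without a number is called PH 3. Induced hepatocyte-like cells (iHep, n = 3) were fibroblasts given liver transcription factors by retrovirus and grown as epithelial lines on dishes coated with type I collagen to passage 10. The line called 4a3 was made with Hnf4a plus Foxa3. The line called 4a3CK was made with that pair plus c-Myc and Klf4, and in 4a1CK Foxa1 took the place of Foxa3. Hnf4a was thus common to the lines, and colonies appeared within 2 weeks for 4a3 and within 5 days for the other lines. Each factor set is represented by 1 line and 1 array, so the spread of the iHep group is a spread between lines. Nothing in the labels ties the arrays of MEF or of PH to different animals or cultures, so the p-values reflect the spread between the arrays at hand, which may be technical.

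Fibroblasts secrete procollagens, which are trimmed outside the cell, assemble into fibrils and are crosslinked by lysyl oxidases, while small leucine-rich proteoglycans bind the fibrils and set their spacing. Elastic fibres form on a scaffold of microfibrils, and matricellular proteins such as periostin and tenascin C connect the matrix with cell surface receptors. Hepatocytes make little fibrillar collagen but secrete fibronectin and other plasma proteins, and in the liver most interstitial matrix is made by stellate cells and portal fibroblasts.

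Values are log2 signals as deposited, so a difference of 1 is a 2-fold difference. The median of 23 nonspecific control probe sets was 2.83 and 2.88 on the MEF arrays, 3.03 to 3.06 on the line arrays, 2.83 and 2.84 on PH 1 and PH 2, and 3.53 on PH 3. PH 3 stood apart, with 93.2% of all genes above the mean of PH 1 and PH 2, while the difference between PH 1 and PH 2 had an SD of only 0.159 over genes against 0.57 for the MEF pair. Among the members, MEF 1 was above MEF 2 in 39 of 44, with a median difference of 0.81, whereas 46.8% of all genes were higher in MEF 1. The labels were checked with marker genes: Alb, the serum albumin gene, was at 11.87 to 11.94 in PH, at 9.30 in 4a3, and at 3.80 and 4.01 in 4a3CK and 4a1CK, beside 4.12 and 4.01 in MEF. Hepatocyte genes were not alike in the lines, as Apoa1 was higher in iHep than in MEF by 7.16 (adjusted p = 0.000928 in limma). The fibroblast markers Thy1 and Cdh11 were at 9.08 to 11.22 in MEF and at 3.15 to 3.81 in every line and PH array.

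**Figure D1:**
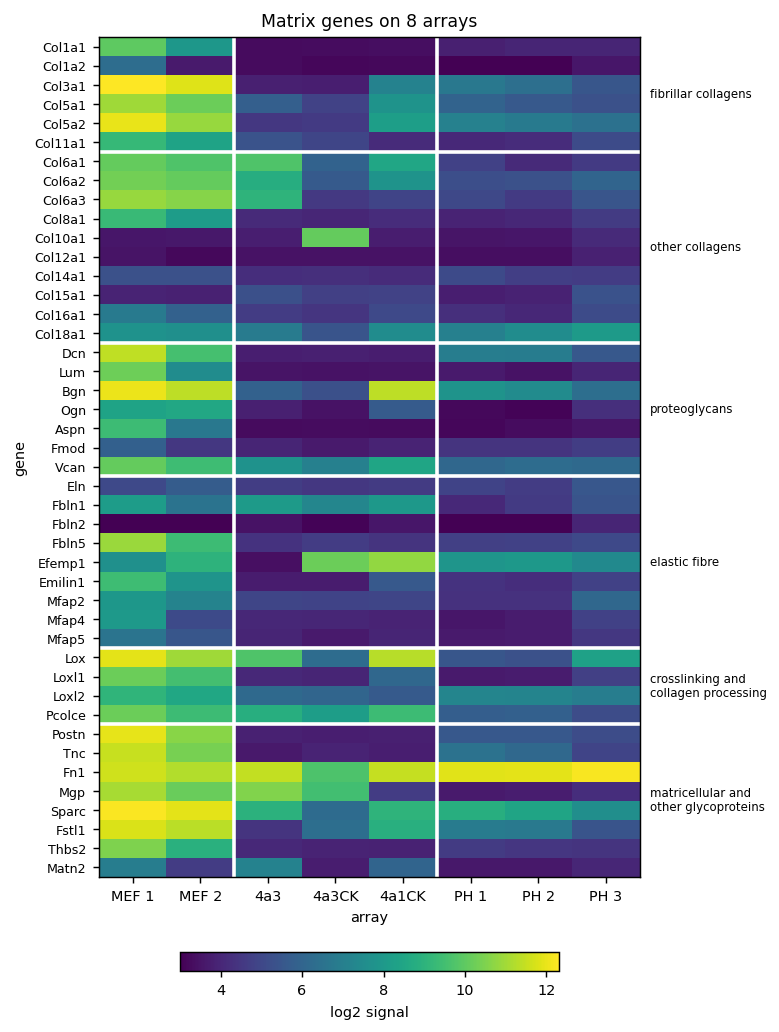
Log2 signal of the 44 measured matrix genes (rows, ordered by role) on 8 arrays (columns, with white lines between MEF, the iHep lines and PH). Bright cells fill the MEF columns, most PH cells are dark, and the lines keep separate bright cells such as Col10a1 in 4a3CK, Bgn in 4a1CK and Mgp in 4a3 and 4a3CK.

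The matrix genes were lower outside the fibroblasts. In PH against MEF, 29 of 44 members fell, where 2.47% of all genes were lower at the same threshold, an adjusted p under 0.05 in limma with a log2 difference of at least 1. The median member difference was -4.18, beside 0.25 over all genes. In iHep against MEF, 23 of 44 members fell, where 4.47% of all genes were lower, and the median difference was -2.72 beside 0.16 over all genes. As higher than MEF, 0 members passed in PH, where 3.37% of all genes did, and 0 in iHep, where 1.98% did; at an unadjusted p under 0.05 the limma counts of higher members were 0 for PH and 1 for iHep. As lower, 22 members passed in both comparisons, 7 in PH and not in iHep, 1 in iHep and not in PH, and 14 in neither. Both comparisons use the same MEF arrays and the same estimate of spread. The overlap was not counted over all genes, so it has no background here. The values of PH lay wholly below those of MEF for 35 members, where this held for 7.9% of all genes. The values of iHep lay wholly below those of MEF for 32 members, where this held for 18.4% of all genes. The reverse, iHep wholly above MEF, held for 3 members (Col10a1, Col15a1 and Fbln2) and 42.6% of all genes.

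These counts depend on MEF 1 and on how many PH arrays are used. Without MEF 1, 15 members passed as lower in PH, where 1.66% of all genes did, and 14 in iHep, where 2.19% did, so calls were lost among all genes as well. In the fits that left out another single array the counts of lower members were 20 to 31 in PH and 21 to 25 in iHep. With PH 1 and PH 2 averaged, 20 members passed as lower in PH, where 290 of all 17097 genes did, beside 423 in the main fit. Whichever single array was left out, 15 of the 29 calls in PH and 14 of the 23 in iHep passed. With each line as its own group, which leaves the spread between lines out of the error and has 3 residual degrees of freedom, 31 members passed as lower in PH, where 2.78% of all genes did, and 27 in iHep, where 4.47% did. That fit added Bgn and Lox in PH. In iHep it added Bgn (adjusted p = 0.00105), Col6a1 (adjusted p = 0.012), Col6a2 (adjusted p = 0.00192), Col6a3 (adjusted p = 0.000218) and Mgp (adjusted p = 0.00564) as lower and Col10a1 as higher (adjusted p = 0.00367), and it lost Col14a1 (adjusted p = 0.0744). Against PH it added Col10a1, Col6a2 and Mgp as higher in iHep and Fn1 as lower (-1.13 ± 0.29, adjusted p = 0.0455).

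**Figure D2:**
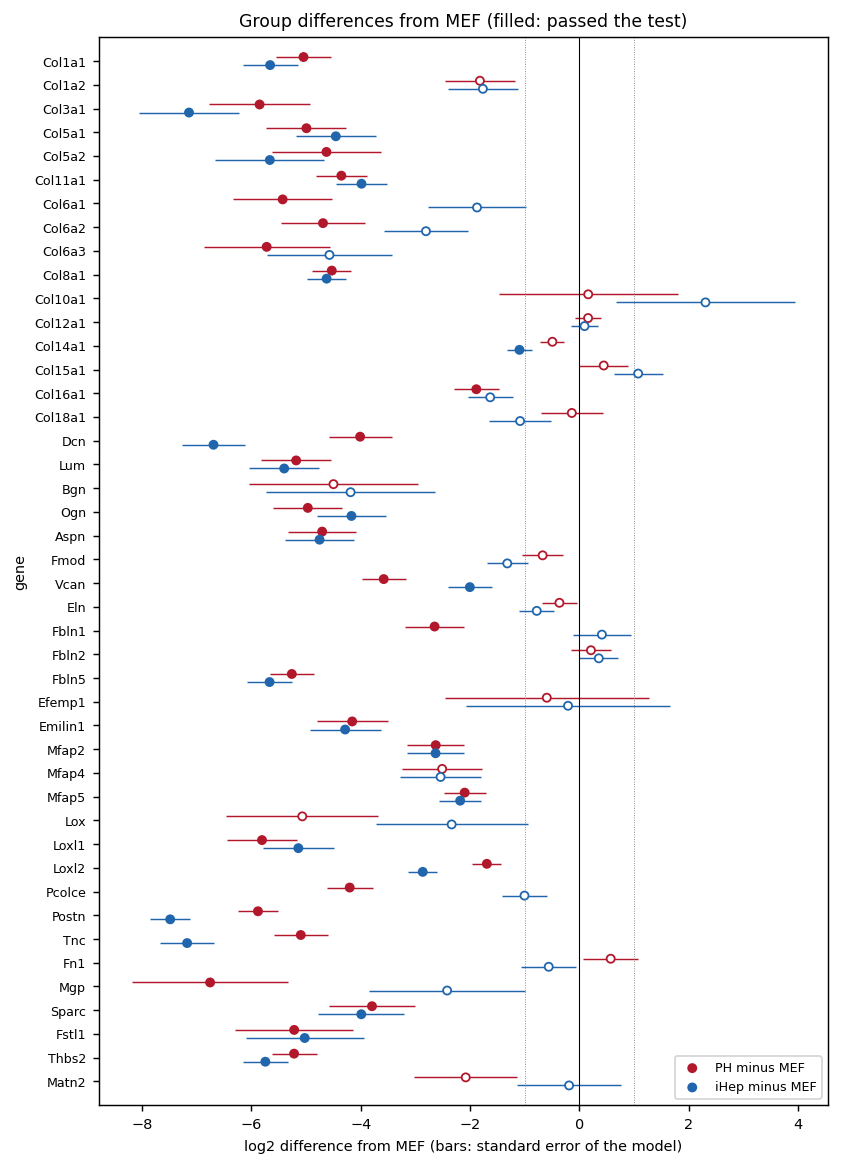
Log2 difference of PH (red) and iHep (blue) from MEF for each measured member, with the standard error of the model as bars; filled points passed the test and open points did not. Postn in PH sits at -5.88 and in iHep at -7.49, while points for Fn1, Col12a1, Fbln2 and Efemp1 lie near 0 or have long bars.

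Among the fibrillar collagens, 5 of 6 members fell in PH and the same number in iHep. Col1a1, the main chain of type I collagen, was at 10.00 and 7.92 in MEF, at 3.28, 3.29 and 3.33 in 4a3, 4a3CK and 4a1CK, and at 3.81, 3.98 and 3.95 in PH. The lines and PH were all below both MEF arrays and close to the control level, and the lines were also below PH. Col1a1 fell by 5.05 ± 0.50 (SE) in PH (adjusted p = 0.00059) and by 5.66 ± 0.50 in iHep (adjusted p = 0.000529). Col3a1, the chain of type III collagen in reticular fibres, was at 12.26 and 11.84 in MEF, 3.83 and 3.78 in 4a3 and 4a3CK, 7.12 in 4a1CK, and 6.74, 6.40 and 5.47 in PH. In this probe set 4a1CK stood above the other lines and above PH, and far below MEF. In the other probe set of Col3a1 it did not, with 3.12 in 4a1CK beside 3.09 and 3.10 in 4a3 and 4a3CK and 3.28 to 3.78 in PH. Col3a1 fell by 7.14 ± 0.92 in iHep, a 141-fold difference (adjusted p = 0.0032), and by 5.85 ± 0.92 in PH (adjusted p = 0.00688).

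Col5a1 and Col5a2, the chains of type V collagen that nucleate type I fibrils, were also highest in 4a1CK among the lines in the probe sets used. Col5a2 was at 11.98 and 10.87 in MEF, 4.51 and 4.57 in 4a3 and 4a3CK, 8.20 in 4a1CK, and 7.09, 6.81 and 6.48 in PH. It fell in PH (-4.63 ± 1.00, adjusted p = 0.0299) and in iHep (-5.66 ± 1.00, adjusted p = 0.014). Col5a1 was at 7.79 in 4a1CK against 5.82 in 4a3 and 4.83 in 4a3CK. Col11a1, a minor fibril chain best known from cartilage, was at 9.23 and 8.38 in MEF and at 4.06 to 5.38 elsewhere, and here 4a1CK had the lowest value of the lines, at 4.15. Col1a2, the other chain of type I collagen, was at 6.31 and 3.66 in MEF and at 2.96 to 3.55 elsewhere. MEF 1 alone stood clear of the rest, and Col1a2 did not pass (-1.82 ± 0.64 in PH, adjusted p = 0.174). Without MEF 2 it passed in PH (-3.14, adjusted p = 0.00244) and in iHep (-3.09, adjusted p = 0.00252). When single arrays were left out, the calls of Col1a1 and Col11a1 passed in both comparisons, that of Col5a1 in PH and that of Col3a1 in iHep. The PH call of Col3a1 was lost without MEF 1 or PH 3, the iHep calls of Col5a1 and Col5a2 without MEF 1, and the PH call of Col5a2 without any one of the MEF or PH arrays, with adjusted p up to 0.204.

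Promoter sequences are shown for members on which the lines differ. They are from RefSeq on GRCm38.p6, from 250 bases before to 50 after the gene's start, and 29 of the 44 measured members were listed. Capitals mark matches, on either strand, to TGTTTAC (forkhead), CAAAGTCCA (Hnf4a), CACGTG (E-box, the site bound by Myc), CCACCC (a box bound by Klf factors), GGGCGG (GC box), CCAAT and TATAAA. No motif in the list holds another whole, but the box for Klf factors and the GC box can share bases. A match describes letters and shows no binding. Col3a1, the fibrillar collagen at 7.12 in 4a1CK in the probe set used, is on chromosome 1 at chr1:45311288-45311587, plus strand, and its window holds TATAAA at -117 and no other match.

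Col3a1: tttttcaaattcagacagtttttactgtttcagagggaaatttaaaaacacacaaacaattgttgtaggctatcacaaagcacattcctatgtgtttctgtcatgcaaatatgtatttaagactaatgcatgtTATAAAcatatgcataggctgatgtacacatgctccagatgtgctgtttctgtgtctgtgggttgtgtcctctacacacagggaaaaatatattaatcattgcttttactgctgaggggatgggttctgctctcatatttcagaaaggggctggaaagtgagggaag

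Among the other collagens, 5 of 10 members fell in PH and 2 of 10 in iHep. Type VI collagen, a beaded filament around cells built from the chains Col6a1, Col6a2 and Col6a3, made up 3 of the PH calls. Col6a1 was at 10.11 and 9.74 in MEF, 9.74, 5.91 and 8.49 in 4a3, 4a3CK and 4a1CK, and 4.79, 4.12 and 4.57 in PH. In 4a3 the value was level with MEF 2, and every line was above every PH array. Col6a1 fell in PH (-5.43 ± 0.90, adjusted p = 0.009) and did not pass in iHep (-1.87 ± 0.90, adjusted p = 0.286). It was higher in iHep than in PH (3.56 ± 0.81, adjusted p = 0.034). Col6a2 had the same order across lines, at 8.81 in 4a3, 7.77 in 4a1CK and 5.62 in 4a3CK, beside 10.31 and 10.10 in MEF and a mean of 5.51 ± 0.42 (SD, n = 3) in PH. It did not pass in iHep (-2.81 ± 0.77, adjusted p = 0.0712), but did without 4a3 (adjusted p = 0.0261) or 4a3CK (adjusted p = 0.0296), and without 4a3CK it was also higher than PH (2.77, adjusted p = 0.00423). Col6a3 differed, as 9.07 in 4a3 stood alone beside 4.53 in 4a3CK and 4.91 in 4a1CK, with 10.86 and 10.62 in MEF and 4.59 to 5.44 in PH. Col6a3 did not pass in iHep (-4.57 ± 1.15, adjusted p = 0.0537), and did without 4a3 (-6.02, adjusted p = 0.000484).

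Col6a1 and Col6a2 are neighbours on chromosome 10 with no protein-coding gene listed between them. Both windows are shown because the chains kept the same order across lines. The window of Col6a1 at chr10:76725995-76726294, minus strand, held the only forkhead match among the 29 members, at -211. The window of Col6a2 at chr10:76623355-76623654, minus strand, is at the first of 2 starts listed and held 3 GC box matches.

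Col6a1: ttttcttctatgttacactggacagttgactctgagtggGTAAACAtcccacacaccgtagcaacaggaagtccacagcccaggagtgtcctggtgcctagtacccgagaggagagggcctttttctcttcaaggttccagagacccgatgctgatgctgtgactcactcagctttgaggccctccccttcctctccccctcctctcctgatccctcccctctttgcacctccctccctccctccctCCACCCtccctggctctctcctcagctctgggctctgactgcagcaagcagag

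Col6a2: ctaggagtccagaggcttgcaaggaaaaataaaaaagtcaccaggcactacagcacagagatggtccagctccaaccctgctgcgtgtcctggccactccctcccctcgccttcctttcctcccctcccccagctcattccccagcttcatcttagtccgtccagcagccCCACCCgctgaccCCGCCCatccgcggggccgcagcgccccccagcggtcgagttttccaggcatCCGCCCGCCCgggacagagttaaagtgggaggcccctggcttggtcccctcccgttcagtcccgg

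Col8a1, a short-chain collagen of vessel walls and basement membranes, was at 9.29 and 8.16 in MEF and at 3.94 to 4.60 on the other 6 arrays. It fell in PH (-4.53 ± 0.36, adjusted p = 0.000181) and in iHep (-4.63 ± 0.36, adjusted p = 0.000273), and both calls passed whichever array was left out. Col16a1, a collagen that sits on fibril surfaces, was at 6.83 and 5.88 in MEF and at 4.03 to 5.13 elsewhere, and fell in PH (-1.89 ± 0.41, adjusted p = 0.0311). In iHep it passed only in the fit without PH 3 among the fits that left out 1 array (adjusted p = 0.018, beside 0.0534 with all arrays). Col14a1, another fibril-associated collagen, fell in iHep by 1.10 ± 0.22 (adjusted p = 0.0228), from 5.32 and 5.31 in MEF to 4.15 to 4.27 in the lines. The call of Col14a1 was lost without any one of MEF 1, MEF 2, 4a3 or 4a1CK, that of Col16a1 without MEF 1, 4a3, PH 1 or PH 2, with adjusted p up to 0.247. The PH call of Col6a1 was lost without MEF 1 or PH 3, that of Col6a2 without MEF 1 or MEF 2, and that of Col6a3 without any one MEF or PH array.

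Col10a1, the collagen of growth plate cartilage, was high in a single line. It was at 10.09 in 4a3CK, and at 3.55 and 3.59 in MEF, 3.80 in 4a3, 3.75 in 4a1CK, and 3.53, 3.55 and 4.12 in PH. The 4a3CK value was 91.5-fold above the MEF mean, with no replicate array of that line. Of the remaining chains, Col12a1 was at 3.21 to 3.87 on all arrays, near the control level. Col15a1 was at 4.78 to 5.27 in the lines beside 3.91 and 3.87 in MEF, and did not pass in iHep (1.07 ± 0.45, adjusted p = 0.215). Without PH 3 it passed as higher in iHep than in MEF (adjusted p = 0.00896) and than in PH (1.13, adjusted p = 0.00811). Col18a1, a basement membrane collagen that hepatocytes make, was at 7.75 and 7.62 in MEF, 7.05, 7.52 and 8.07 in PH, 6.88 in 4a3, 7.52 in 4a1CK and 5.41 in 4a3CK. Its PH difference was -0.14 ± 0.57 (adjusted p = 0.894). The Col10a1 window at chr10:34389731-34390030, plus strand, is shown because the gene was high in 4a3CK alone, and it holds TATAAA at -32.

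Col10a1: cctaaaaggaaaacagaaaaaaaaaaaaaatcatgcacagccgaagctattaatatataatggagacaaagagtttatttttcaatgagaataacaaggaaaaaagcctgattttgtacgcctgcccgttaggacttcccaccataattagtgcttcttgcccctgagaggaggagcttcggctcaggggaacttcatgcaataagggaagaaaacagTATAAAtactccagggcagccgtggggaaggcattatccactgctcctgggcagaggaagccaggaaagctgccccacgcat

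Among the proteoglycans, 5 of 7 members fell in PH and 5 of 7 in iHep. Dcn (decorin), which coats collagen fibrils, was at 11.41 and 9.55 in MEF, 3.77, 3.83 and 3.76 in 4a3, 4a3CK and 4a1CK, and 6.95, 6.91 and 5.55 in PH. The lines lay below every PH array, and PH lay below MEF. Dcn fell by 6.69 ± 0.58 in iHep (adjusted p = 0.000433) and by 4.01 ± 0.58 in PH (adjusted p = 0.00428), and was lower in iHep than in PH (-2.68 ± 0.52, adjusted p = 0.0174). Lum (lumican), a keratan sulphate proteoglycan of fibrils, was at 10.24 and 7.52 in MEF, 3.45 to 3.50 in the lines and 3.47 to 3.96 in PH. Dcn and Lum are neighbours on chromosome 10 with no protein-coding gene listed between them. Yet Dcn kept a level above that of the lines in PH while the Lum values of PH and the lines overlapped. Aspn (asporin) fell from 9.36 and 6.72 in MEF to 3.17 to 3.52 on all other arrays, and Ogn (osteoglycin) from 8.39 and 8.57 to 3.11 to 4.24 in PH and 3.45 to 5.68 in the lines. Vcan (versican), a large hyaluronan-binding proteoglycan, was at 10.12 and 9.41 in MEF, 7.76, 7.06 and 8.45 in 4a3, 4a3CK and 4a1CK, and 6.10 to 6.27 in PH. Vcan fell in both comparisons and was higher in iHep than in PH (1.58 ± 0.36, adjusted p = 0.0332).

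Bgn (biglycan), a close relative of decorin, differed most between lines among the proteoglycans. It was at 12.02 and 11.39 in MEF, 5.90, 5.26 and 11.38 in 4a3, 4a3CK and 4a1CK, and 7.77, 7.48 and 6.35 in PH. The 4a1CK value was level with MEF 2, and both other lines were below all PH arrays. Bgn did not pass in PH (-4.50 ± 1.55, adjusted p = 0.166), although all PH values were below MEF. With each line as its own group it passed in PH (adjusted p = 0.000453). Without 4a1CK it passed in PH (adjusted p = 0.000723) and in iHep (-6.12, adjusted p = 0.000478). Fmod (fibromodulin) was at 5.84 and 4.50 in MEF and at 3.66 to 4.69 elsewhere, and did not pass. Its iHep difference passed without MEF 2 (-1.99, adjusted p = 0.0135) and also in the fit lacking PH 3 (-1.32, adjusted p = 0.0498). Among the proteoglycan calls against MEF, the iHep call of Vcan was lost without MEF 1, MEF 2 or 4a3 (adjusted p up to 0.17), and the others passed whichever array was left out. The Bgn window at chrX:73483351-73483650, plus strand, holds 3 GC box matches and 1 match to CCACCC.

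Bgn: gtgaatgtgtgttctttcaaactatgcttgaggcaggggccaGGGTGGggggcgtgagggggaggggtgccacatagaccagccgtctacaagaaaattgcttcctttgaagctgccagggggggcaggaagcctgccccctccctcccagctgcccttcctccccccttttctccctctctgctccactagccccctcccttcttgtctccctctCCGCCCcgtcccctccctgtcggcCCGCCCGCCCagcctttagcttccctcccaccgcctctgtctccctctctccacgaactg

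Among the elastic fibre genes, 5 of 9 measured members fell in PH and 4 of 9 in iHep. Fbln5 (fibulin 5), which organises elastic fibres at the cell surface, was at 10.91 and 9.36 in MEF, 4.36 to 4.65 in the lines and 4.76 to 5.05 in PH. It fell by 5.67 ± 0.41 in iHep (adjusted p = 0.0002) and by 5.26 ± 0.41 in PH (adjusted p = 0.000166), whichever array was left out. Emilin1, a glycoprotein between elastin and microfibrils, was at 9.42 and 7.81 in MEF, 3.69 and 3.70 in 4a3 and 4a3CK, 5.60 in 4a1CK, and 4.23 to 4.79 in PH. The microfibril genes Mfap2 and Mfap5 also fell in both comparisons, by 2.10 to 2.63. Mfap4 was at 7.98 and 5.09 in MEF and did not pass (-2.51 ± 0.74 in PH, adjusted p = 0.0988). Without MEF 2 it passed in PH (-3.95, adjusted p = 0.00422) and in iHep (-3.98, adjusted p = 0.00403). The gene for elastin itself, Eln, was at 5.06 and 5.71 in MEF, 4.52 to 4.68 in the lines and 4.65 to 5.53 in PH, and did not pass in either comparison. Leaving out MEF 1 ended the calls of Emilin1, Mfap2 and Mfap5 in both comparisons and that of Fbln1 in PH, and Mfap2, Mfap5 and Fbln1 were also lost in PH without PH 1 or PH 2, with adjusted p up to 0.173. The Mfap2 calls were lost without MEF 2 as well, and in iHep without 4a3.

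The fibulins were not alike. Fbln1 (fibulin 1), a matrix and plasma protein that binds fibronectin, was at 8.13 and 6.56 in MEF, 8.07, 7.25 and 7.94 in 4a3, 4a3CK and 4a1CK, and 4.09, 4.59 and 5.40 in PH. The lines were within or near the MEF values and wholly above PH. Fbln1 fell in PH (-2.65 ± 0.53, adjusted p = 0.0216), did not pass in iHep (0.41 ± 0.53, adjusted p = 0.701), and was higher in iHep than in PH (3.06 ± 0.48, adjusted p = 0.00709). Efemp1 (fibulin 3) had a mean of 8.34 ± 0.93 (SD, n = 2) in MEF and was at 3.40, 10.21 and 10.79 in 4a3, 4a3CK and 4a1CK, and 7.87, 7.95 and 7.41 in PH. The line 4a3 was thus near the control level where the lines made with c-Myc and Klf4 were above MEF. Without 4a3, Efemp1 passed as higher in iHep than in PH (2.76, adjusted p = 0.0126). Efemp1 in 4a1CK was the one member at least 4-fold above the MEF mean in that line. Fbln2 was at 2.85 to 3.96 on all arrays. The Efemp1 window at chr11:28852955-28853254, plus strand, held a GC box match at -29.

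Efemp1: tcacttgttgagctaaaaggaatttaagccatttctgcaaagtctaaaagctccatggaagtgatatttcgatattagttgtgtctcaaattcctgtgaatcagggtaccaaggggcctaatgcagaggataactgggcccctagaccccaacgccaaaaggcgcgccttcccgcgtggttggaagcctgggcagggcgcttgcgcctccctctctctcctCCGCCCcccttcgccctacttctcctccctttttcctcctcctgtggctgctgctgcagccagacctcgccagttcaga

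Over the 29 listed members, the shares with a match were mostly near those of all 27025 promoters of the same length. The forkhead motif was in 3.45% of member promoters and 3.55% of all, CCAAT in 37.9% of both, and TATAAA in 20.7% and 14.2%. CCACCC was in 41.4% of members and 30.9% of all, and the GC box in 55.2% and 35.9%. The E-box CACGTG was in 1 of 29 members, Fbln1, and in 7.24% of all promoters. CAAAGTCCA was in no member window and in 0.477% of all.

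**Figure D3:**
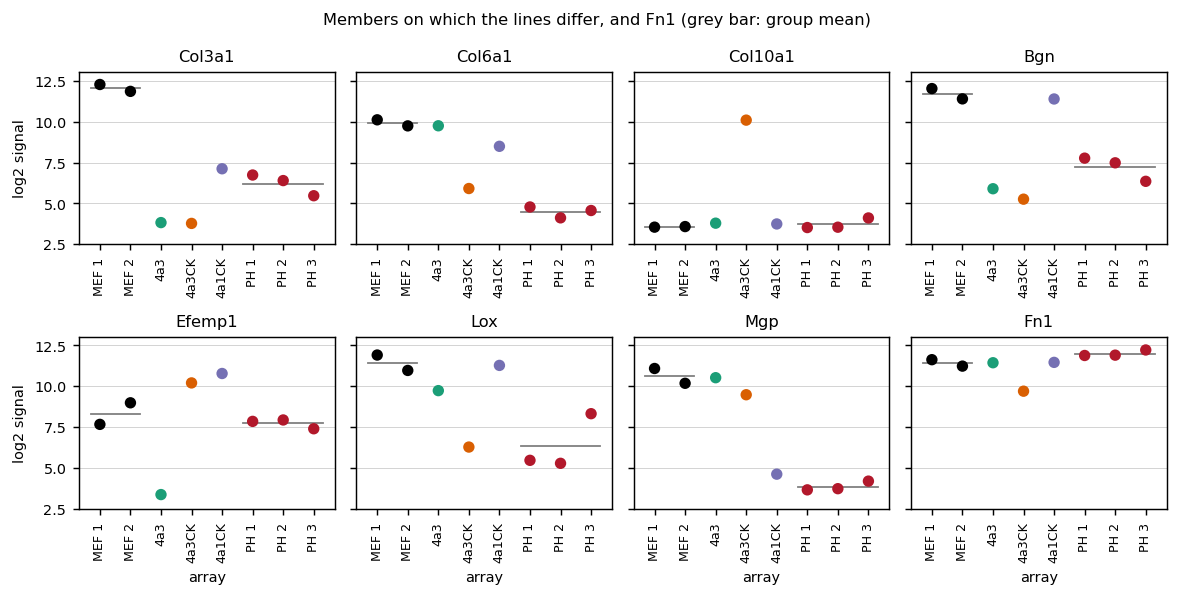
Log2 signal on each array for 8 members, with MEF in black, 4a3 in green, 4a3CK in orange, 4a1CK in violet and PH in red; grey bars are the means of MEF and PH. Bgn and Mgp in 4a1CK and Col6a1, Lox and Col10a1 in 4a3CK are apart from the other lines, and Fn1 is between 9.71 and 12.23 on all arrays.

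Crosslinking and collagen processing held 4 members, of which 3 fell in PH and 2 in iHep. Loxl1, a lysyl oxidase needed for elastic fibres, was at 10.21 and 9.51 in MEF, 4.08 and 3.97 in 4a3 and 4a3CK, 6.10 in 4a1CK, and 3.67, 3.73 and 4.76 in PH. Loxl2, another lysyl oxidase, was at 9.07 and 8.55 in MEF, 5.65 to 6.17 in the lines and 6.96 to 7.22 in PH, with no overlap between any groups. Loxl2 fell in PH (-1.69 ± 0.26, adjusted p = 0.00634) and in iHep (-2.87 ± 0.26, adjusted p = 0.000557), and was lower in iHep than in PH (-1.17 ± 0.23, adjusted p = 0.0201). Pcolce, which enhances cleavage of the procollagen C-propeptide, was at 10.22 and 9.39 in MEF, 8.84, 8.16 and 9.39 in 4a3, 4a3CK and 4a1CK, and 5.78, 5.86 and 5.16 in PH. The lines kept values near MEF and wholly above PH. Pcolce fell in PH (-4.20 ± 0.42, adjusted p = 0.00059), did not pass in iHep (2.01-fold lower, adjusted p = 0.217), and was higher in iHep than in PH (3.20 ± 0.38, adjusted p = 0.00189).

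Lox, the founding lysyl oxidase, was at 11.92 and 10.98 in MEF, 9.74, 6.30 and 11.28 in 4a3, 4a3CK and 4a1CK, and 5.49, 5.31 and 8.34 in PH. The line 4a1CK was within the MEF values, and PH 3 stood above PH 1 and PH 2. Lox did not pass in PH (-5.07 ± 1.39, adjusted p = 0.0791) and passed with each line as its own group (adjusted p = 0.006), without 4a3CK (adjusted p = 0.0108) and without 4a1CK (adjusted p = 0.0354). Without 4a3CK it was higher in iHep than in PH (4.14, adjusted p = 0.0258). Leaving out MEF 1 ended the PH call of Loxl2 (adjusted p = 0.072), and the other crosslinking calls against MEF passed whichever array was left out.

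Of the 8 matricellular and other glycoproteins, 6 fell in PH and 5 in iHep. Postn (periostin), which helps assemble collagen and tenascin networks, was at 11.96 and 10.65 in MEF, 3.85, 3.77 and 3.83 in 4a3, 4a3CK and 4a1CK, and 5.55, 5.54 and 5.17 in PH. Tnc (tenascin C), a glycoprotein of embryonic and healing tissue, was at 11.50 and 10.41 in MEF, 3.65, 3.91 and 3.78 in the lines, and 6.52, 6.15 and 4.90 in PH. For both genes the lines lay below PH and PH below MEF, with no overlap in the probe sets used. In the other probe set of Tnc, dim with a MEF mean of 4.99, the lines and PH overlapped, at 3.03 to 3.11 and 3.03 to 3.38. Postn fell by 7.49 ± 0.36 in iHep (adjusted p = 6.57e-05), a 179-fold difference, and by 5.88 ± 0.36 in PH (adjusted p = 7.11e-05). Tnc fell by 7.18 ± 0.49 in iHep (adjusted p = 0.000162) and by 5.10 ± 0.49 in PH (adjusted p = 0.000511). Thbs2 (thrombospondin 2), which affects fibril assembly, was at 10.51 and 8.91 in MEF, 3.88 to 4.08 in the lines and 4.39 to 4.63 in PH.

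Sparc (osteonectin), a collagen-binding protein, had smaller differences. It was at 12.25 and 11.93 in MEF, 8.98, 6.27 and 9.05 in 4a3, 4a3CK and 4a1CK, and 8.83, 8.45 and 7.61 in PH. Sparc fell in PH (-3.79 ± 0.78, adjusted p = 0.0243) and in iHep (-3.99 ± 0.78, adjusted p = 0.0212). Fstl1 (follistatin-like 1), a secreted glycoprotein, was at 11.79 and 11.33 in MEF, 4.40, 6.35 and 8.85 in 4a3, 4a3CK and 4a1CK, and 6.87, 6.75 and 5.40 in PH. Its values in the lines were spread around those of PH, and it fell in both comparisons (adjusted p = 0.0242 in PH and 0.0298 in iHep). Mgp (matrix Gla protein), an inhibitor of calcification, was at 11.09 and 10.19 in MEF, 10.53, 9.49 and 4.64 in 4a3, 4a3CK and 4a1CK, and 3.69, 3.76 and 4.22 in PH. The line 4a1CK was thus near PH and both other lines near MEF, the reverse of the order for Bgn. Mgp fell in PH (-6.76 ± 1.43, adjusted p = 0.0271) and did not pass in iHep (-2.42 ± 1.43, adjusted p = 0.386). Without 4a1CK it was higher in iHep than in PH (6.13, adjusted p = 0.000281).

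Fn1 (fibronectin), an adhesive glycoprotein of both matrix and plasma, passed in none of the 3 comparisons with the lines as 1 group. It was at 11.63 and 11.24 in MEF, 11.45, 9.71 and 11.47 in 4a3, 4a3CK and 4a1CK, and 11.89, 11.91 and 12.23 in PH. Every PH array was above both MEF arrays, by a group difference of 0.57 ± 0.50 that did not pass (adjusted p = 0.635), where 30.1% of all genes had PH wholly above MEF. Matn2 (matrilin 2), an adaptor of filament networks, was at 6.95 and 4.65 in MEF, 7.12, 3.73 and 5.99 in 4a3, 4a3CK and 4a1CK, and 3.59 to 3.99 in PH, and did not pass against MEF. Without 4a3CK it was higher in iHep than in PH (2.83, adjusted p = 0.0286). Among these glycoproteins the calls of Postn, Tnc and Thbs2 against MEF passed whichever array was left out. The PH calls of Mgp, Sparc and Fstl1 were each lost without any one MEF or PH array, and the iHep calls of Sparc and Fstl1 without MEF 1 or MEF 2, Fstl1 also without PH 1 or PH 2, with adjusted p up to 0.171.

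Each line was also set against the MEF mean by itself, with no replicate check. At least 4-fold lower were 25 members in 4a3, where this held for 3.5% of all genes, 30 in 4a3CK, where it held for 2.98%, and 25 in 4a1CK, where it held for 3.22%. The median member difference was -2.54 in 4a3, -3.94 in 4a3CK and -2.61 in 4a1CK. Of the 44 members, 22 were at least 4-fold lower in every line, where 1.93% of all genes were, among them Col1a1, Col3a1, Dcn, Lum, Fbln5, Loxl1, Postn and Tnc. Col6a2, Col6a3, Bgn and Vcan were so in 2 lines, as were 1.20% of all genes, and 6 members were so in 1 line, as were 1.52%. Col6a1, Col18a1, Lox and Matn2 were so in 4a3CK alone, Efemp1 in 4a3 alone and Mgp in 4a1CK alone. The other 12 were so in no line, and of these Pcolce and Fn1 had MEF means above 8. At least 4-fold higher than MEF were Col10a1 in 4a3CK, where 2.25% of all genes were higher, and Efemp1 in 4a1CK, where 2.28% were. In 4a3 0 members were, where 2.34% of all genes were.

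**Figure D4:**
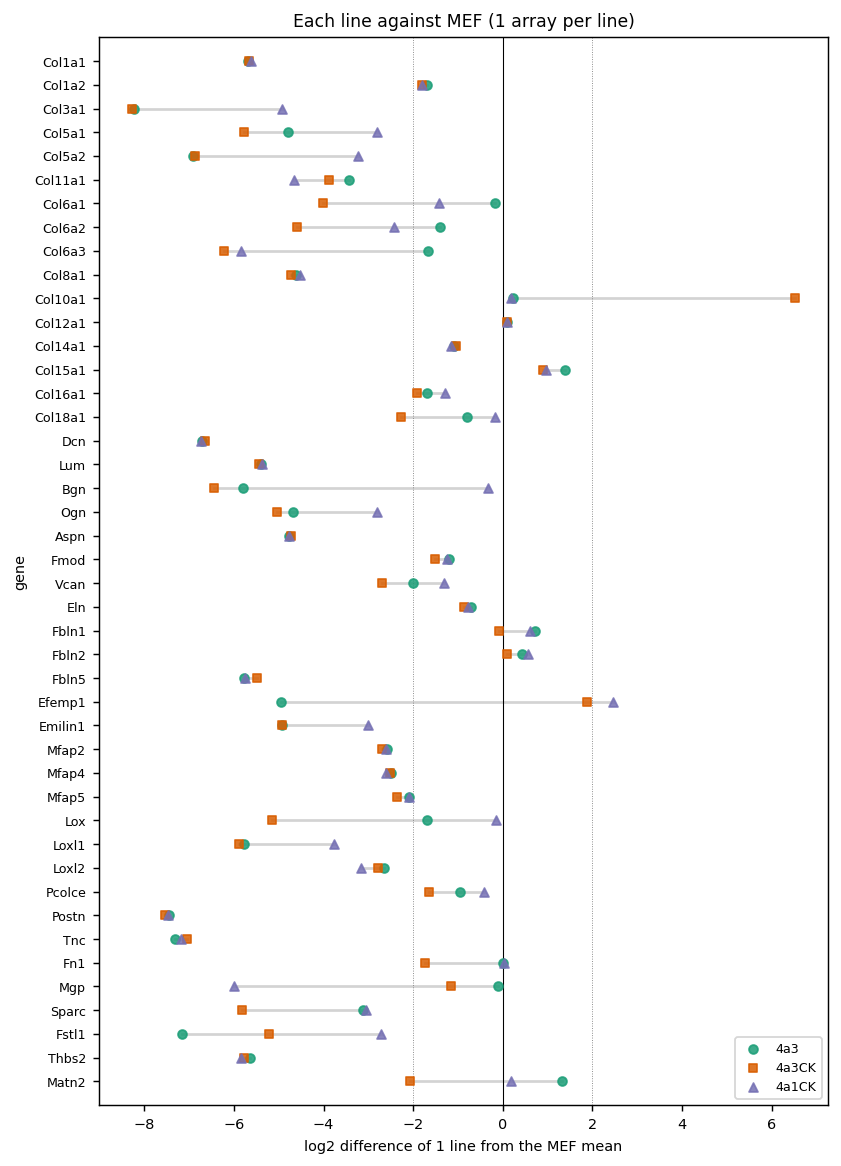
Log2 difference of each line from the MEF mean for each measured member, 1 array per line; circles are 4a3, squares 4a3CK and triangles 4a1CK, grey bars join the lines, and dotted lines mark 4-fold. For Col1a1, Dcn, Lum, Postn and Tnc the marks coincide, while for Bgn, Efemp1, Mgp and Col10a1 they are 5.89 to 7.39 apart.

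Between the lines with c-Myc and Klf4, 15 members differed at least 4-fold, where 3.16% of all genes did. In 13 of these 4a1CK was the higher line, by up to 6.12 for Bgn, where it was higher for 1.37% of all genes. In Col10a1 and Mgp it was the lower, where it was so for 1.8% of all genes. Between 4a1CK and 4a3, 8 members differed, where 1.32% of all genes did. Col3a1, Col5a2, Bgn, Efemp1, Loxl1 and Fstl1 were higher in 4a1CK, where 0.638% of all genes were, and Col6a3 and Mgp were lower, where 0.684% were. Between 4a3CK and 4a3, which share Hnf4a and Foxa3, 8 members also differed, where 2.23% of all genes did. Col6a1, Col6a2, Col6a3, Lox, Sparc and Matn2 were lower in 4a3CK, where 0.871% of all genes were, and Col10a1 and Efemp1 were higher, where 1.36% were. The factors and the lines cannot be told apart in these differences, since each factor set is 1 line.

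Some fibroblast markers were higher in 4a1CK than in the other lines, and others were not. Of the 13 fibroblast genes, 9 passed as lower in PH, where 2.47% of all genes did, and 6 in iHep, where 4.47% did. Their mean level was 9.02 and 8.69 in MEF, 6.01, 5.53 and 6.53 in 4a3, 4a3CK and 4a1CK, and 5.35 to 5.69 in PH. The regulators Prrx1, Twist1, Twist2 and Snai2 were at 7.76, 7.52, 7.84 and 7.91 in 4a1CK and at 4.82 to 6.79 in the other lines, and S100a4 at 8.81 beside 8.32 and 7.18. The surface markers Thy1 and Cdh11 were at 3.15 to 3.31 in all lines, and Pdgfra, Pdgfrb and Fap were at 4.44 to 4.51, 3.83 to 3.92 and 3.63 to 3.78. Cdh2 was at 5.59 in 4a1CK and 8.04 in 4a3, Zeb1 at 8.34 and 8.58, and Vim at 11.79 to 12.54 in the lines. The part of remaining fibroblasts in the 4a1CK values was not tested, and in bulk RNA fewer cells of a type and less RNA per cell cannot be told apart. The mean of 7 hepatocyte genes was 7.94, 7.07 and 5.22 in 4a3, 4a3CK and 4a1CK, and 9.52 to 9.96 in PH. As higher than MEF, 6 of them passed in PH, where 3.37% of all genes did, and 1, Apoa1, in iHep, where 1.98% did.

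Several genes rest on a choice between probe sets. The 22 members with more than 1 probe set had 30 others, of which 18 had a MEF mean above 6. On the side of a 4-fold fall, the other probe set matched the one used for 16 of 18 in 4a3, 18 in PH, 17 in 4a1CK and 16 in 4a3CK. That limit was set on MEF, where these genes are high, so it favours a match on falls from MEF. Matches among the dimmer probe sets were not counted, and some did not match. That of Fbln5, with a MEF mean of 3.96, differed from MEF by 0.06 in PH, beside -5.26 in the one used. Those of Col14a1 matched, with no 4-fold fall in PH in any. The values left in 4a1CK did not all recur. Besides that of Col3a1, the other probe set of Col5a2 was at 4.11 in 4a1CK, and that of Col5a1 with a MEF mean of 9.87 at 5.79. That of Ogn was at 4.11, 3.86 and 4.70 in 4a3, 4a3CK and 4a1CK. That of Loxl1, dim with a MEF mean of 5.13, was at 3.83, 3.76 and 3.79. The higher levels of Bgn, Fstl1 and Lox in 4a1CK did recur, at 10.43, 8.39 and 10.84 in the other probe set. So did those of Sparc and Col18a1 over 4a3CK, at 6.75 and 7.94 beside 4.70 and 5.14. In the other probe set of Col6a2, 4a3 and 4a1CK were closer to PH, at 6.35 and 6.08 beside 5.84 to 6.24. There 4a3 was 2.46 below MEF, so Col6a2 was at least 4-fold lower in every line. With the mean of all probe sets, 9 members rather than 15 differed between 4a1CK and 4a3CK, and 5 rather than 8 between 4a1CK and 4a3.

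**Figure D5:**
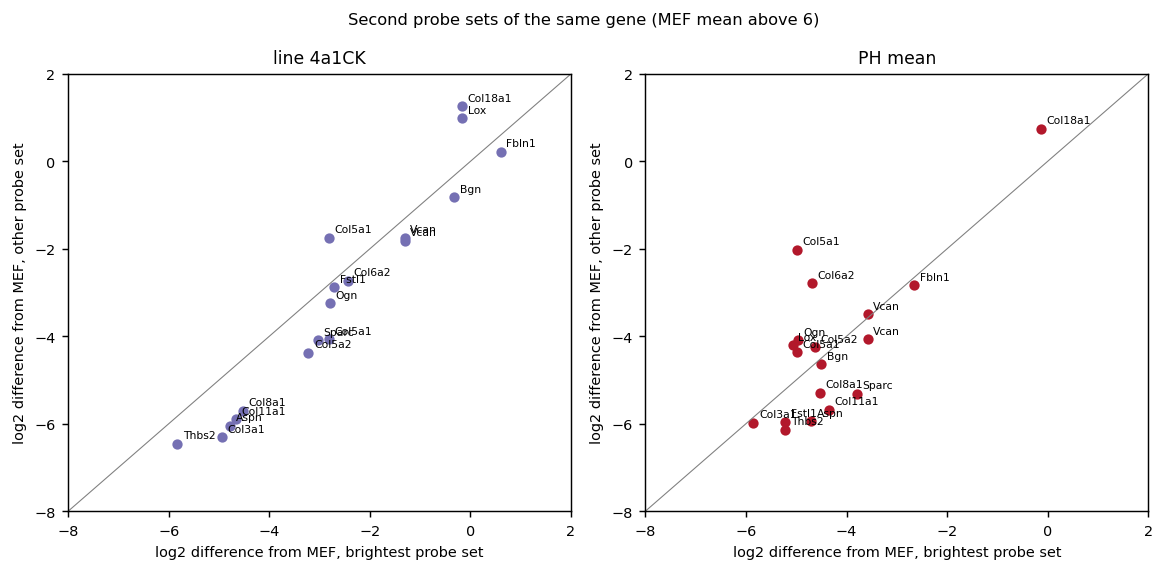
Log2 difference from MEF in the probe set used (x axis) and in another probe set of the same gene (y axis), for line 4a1CK (left) and the PH mean (right), 18 probe sets with a MEF mean above 6; the line marks equal values. Bgn and Fbln1 lie near the line on the left, while Col3a1 and Col5a2 lie below it.

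Against PH, the lines were neither uniformly higher nor lower. Of 44 members, 4 were higher in iHep (Col6a1, Fbln1, Pcolce and Vcan), where 1.49% of all genes were, and 4 were lower (Dcn, Tnc, Postn and Loxl2), where 5.64% were. The median member difference was -0.02. The lines lay wholly above PH for 5 members, as for 5.04% of all genes, and wholly below PH for 10, as for 21.3%. The members lower in iHep were above the control level in PH and near it in the lines, except Loxl2, at 5.65 to 6.17. After quantile normalization or subtraction of array medians, the 4 higher members passed and 0 lower members did, with 5 and 4 lower members at an unadjusted limma p under 0.05. Over all 17097 genes, 526 and 465 were then higher and 800 and 816 lower, beside 254 and 965 in the main fit. Without 4a1CK, Col3a1 (-2.40, adjusted p = 0.0116) and Col5a2 (-2.26, adjusted p = 0.012) also passed as lower in iHep than in PH, in the probe sets used. The other probe sets had 4a3 and 4a3CK closer to PH. There Col3a1 was at 3.09 and 3.10 in these lines beside 3.28 to 3.78 in PH. Col5a2 was at 3.92 and 3.76 beside 3.90 to 4.81. The calls of Fbln1 and Pcolce passed whichever array was left out. Dcn was lost without 4a3, PH 1 or PH 2, Postn, Tnc, Loxl2 and Vcan also without 4a1CK, and Col6a1 without any single array except 4a3CK, with adjusted p up to 0.111.

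Acta2, smooth muscle actin of myofibroblasts and activated stellate cells, was at 12.12 and 11.90 in MEF, 9.53, 9.37 and 7.51 in PH and 5.41 to 5.60 in the lines, and was lowest in PH 3 among the PH arrays. PH 3 was above the mean of PH 1 and PH 2 for 29 of the 44 members and for 93.2% of all genes. Like Acta2, 14 of the 44 members were lowest in PH 3, among them Dcn, Tnc, Bgn and Postn, and 27 were highest there. These last counts were not made over all genes. Of the 5 smooth muscle genes measured, those other than Acta2 did not show its order, Myl9 being at 4.97, 4.76 and 5.40 in PH. The 8 stellate cell markers had a mean of 3.91 to 4.52 on all arrays, and Lrat, which stores retinoid in those cells, was at 3.71 to 3.99. The part of other liver cells in the PH values was not tested.

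Genes that fold and modify collagen were also among those lower outside the fibroblasts. Of 23 measured genes in a list of 28, 10 passed as lower in PH, where 2.47% of all genes did, and 7 in iHep, where 4.47% did, with median differences of -1.55 and -0.82. Serpinh1, the collagen chaperone HSP47, was at 11.85 and 11.72 in MEF, 8.89, 8.73 and 9.68 in 4a3, 4a3CK and 4a1CK, and 7.99, 7.65 and 6.96 in PH. It fell in PH (-4.25 ± 0.38, adjusted p = 0.000337) and in iHep (-2.69 ± 0.38, adjusted p = 0.00485), and was higher in iHep than in PH (1.57 ± 0.34, adjusted p = 0.028). Plod2, a lysyl hydroxylase of collagen telopeptides, was at 9.86 and 9.08 in MEF, 8.80 to 10.42 in the lines and 6.84 to 7.56 in PH, and fell in PH (-2.35 ± 0.49, adjusted p = 0.0245). It was higher in iHep than in PH (2.37 ± 0.44, adjusted p = 0.0143). P3h4, a scaffold of the lysyl hydroxylation complex, also fell in PH (-3.98 ± 0.58) and was higher in iHep than in PH (3.03 ± 0.52, adjusted p = 0.0107). Plod1, another lysyl hydroxylase, fell in iHep (-3.24 ± 0.50, adjusted p = 0.00736), from 8.54 and 6.52 in MEF to 4.23 to 4.36 in the lines. P3h3, a prolyl 3-hydroxylase family member, fell in PH by 3.12, and P4ha3, a prolyl 4-hydroxylase subunit, fell in iHep by 2.62. Pcolce2, a relative of Pcolce, was higher in iHep than in PH (2.29 ± 0.58, adjusted p = 0.0484). P4hb, protein disulphide isomerase, was at 10.50 to 11.29 on all arrays and did not pass. Bmp1, the procollagen C-proteinase that Pcolce enhances, was lower in iHep than in PH (-1.81 ± 0.36, adjusted p = 0.0201), the opposite direction to Pcolce.

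Of 43 measured matrix genes that are not members, 7 passed as lower in PH, where 2.47% of all genes did, and 7 in iHep, where 4.47% did. As higher in PH 1 passed, where 3.37% of all genes did. The gene higher in PH was Vtn, the plasma adhesion protein vitronectin, at 3.29 and 3.42 in MEF, 3.58 to 3.79 in the lines and 10.38, 10.08 and 10.19 in PH (6.86 ± 0.21, adjusted p = 3.18e-06). Of those lower in PH, Tgfbi, Fbn2 and Ltbp1 fell by 4.91, 4.84 and 4.80, and in iHep Ltbp2, Loxl3 and Fbn2 fell by 4.61, 4.48 and 4.40. Ltbp1, a latent TGF-beta binding protein, was higher in iHep than in PH (3.82 ± 0.68, adjusted p = 0.0129). Among 6 receptors measured, Ddr2, a receptor for fibrillar collagen, was at 8.08 and 8.21 in MEF, 6.72 to 7.34 in the lines and 3.40 to 4.00 in PH. Mrc2, which takes up collagen for degradation, was at 9.11 and 8.40 in MEF, 4.31 to 4.34 in the lines and 3.78 to 5.11 in PH, and fell in both comparisons by 4.43 to 4.45. Cd44, a hyaluronan receptor, fell in iHep (-1.54 ± 0.21, adjusted p = 0.00377), and Sdc4, a cell surface proteoglycan, was higher in PH than in MEF (1.48 ± 0.33, adjusted p = 0.0341).

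The identifiers of the arrays fall in 2 ranges, of which the first holds MEF 2, PH 3 and the lines and the second MEF 1, PH 1 and PH 2. Within the first range, 26 members were at least 4-fold lower in PH than in MEF, where 1.75% of all genes were, and 23 were so in iHep, where 2.67% were. Within the second, 33 were so in PH, where 3.11% of all genes were. The median member difference in PH was -3.25 in the first range and -4.44 in the second, beside 0.70 and 0.02 over all genes.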

How the data were processed

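Log2 signals per probe set were deposited; per the submitters' processing notes the authors made them with RMA in Partek, with no version stated there. They were used as deposited. Of 45141 probe sets, 28898 carried 1 gene symbol and 551 several, and 1 probe set per gene, that with the highest mean over 8 arrays, gave 17097 genes. Tests were two-sided and used limma 3.58.1 (lmFit, then eBayes) in R 4.3.3, with a term for each of 3 groups and 5 residual degrees of freedom over 8 arrays. The Benjamini-Hochberg adjustment was made over all genes. Errors are standard errors of that model, and the spread between lines enters all of them. Lines were compared with 1 array each, with no test, at a log2 difference of 2. The number of arrays limits the precision. RMA signals flatten near the level of the control probe sets, so differences that end there are limited by it. The model was tested on simulated data. All members are named; members and lists were chosen with earlier results of these data known. From the other lists, genes with the largest passing differences were named, and others (P4hb, Alb, Acta2, Myl9, Lrat and the regulators in 4a1CK) were chosen after their values were seen. Alternatives were the mean of probe sets, other scaling, filters, thresholds and variance models, blocks, and leaving out each array; the crossed pairing and PH 1 as the only PH array were added after seeing the data. The replicate numbers of MEF and PH were not taken as pairs. Promoters came from RefSeq (GRCm38.p6), and gene order from the same build. Python 3.11.15, pandas 2.3.3, numpy 2.4.6 and matplotlib 3.10.9 were used.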

Additional observations from a re-analysis of the deposited data

How the results depend on the processing

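For PH against MEF the count of members that pass, 29 in the main analysis, was 18 with the replicate block, 19 with the crossed pairing block and 5 with PH 1 as the only PH array, and leaving out single arrays gave 15 to 31. For iHep against MEF it was 15 instead of 23 at an adjusted p under 0.01 and 16 with the replicate block, and leaving out single arrays gave 14 to 26. For iHep against PH it was 4 instead of 8 after quantile normalization, 4 after subtracting array medians, 5 at a log2 difference of at least 2, 2 at an adjusted p under 0.01, 4 with the range of array identifiers as a block, 2 with PH 1 and PH 2 averaged, 5 with the crossed pairing block, and 0 with PH 1 as the only PH array, where 5 lower and 3 higher members had an unadjusted limma p under 0.05. Leaving out single arrays gave 2 to 11, with 3 without 4a3 and 2 without PH 1 or PH 2. Between 4a1CK and 4a3CK, 15 members differed, against 6 at a log2 difference of 3 and 9 with the mean of all probe sets. Between 4a1CK and 4a3, 8 differed, against 16 at a log2 difference of 1 and 5 with the mean of all probe sets. A stricter threshold can only lower a count, and for the other settings the cause was not tested.

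Member by member, 2725 of 3030 results under alternatives were on the same side of the threshold as in the main analysis, 246 lost a call and 59 gained one, and no call changed direction, though 110 differences that passed in neither changed sign. Calls kept under every alternative were 4 of 29 for PH against MEF (Col8a1, Fbln5, Postn and Tnc), 12 of 23 for iHep against MEF and 0 of 8 for iHep against PH. Calls over all genes also moved with the setting, and not always in the same direction as the member counts. In iHep against MEF 339 genes were higher and 764 lower, at an adjusted p under 0.01 77 and 312, and with the replicate block 79 and 1853. In iHep against PH 254 were higher and 965 lower, and with the crossed pairing block 97 and 2616. In PH against MEF 577 genes were higher and 423 lower, after quantile normalization 519 and 609, and with PH 1 and PH 2 averaged 398 and 290. The replicate numbers share only a name: MEF 1 minus MEF 2 and PH 1 minus PH 2 had a correlation of -0.20 over genes, from 2 pairs. Values near the control probe sets, as for Col1a2, Col12a1 and Fbln2, limit what differences can be seen.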
